A study of Mus musculus with 24 samples.

Results

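Kruppel-like factors (KLFs) are transcription factors that bind GC-rich and CACCC-type DNA through zinc fingers at their carboxyl end. Most of the protein outside the fingers differs between them, and that part recruits activators or repressors. In heart, KLF15 is known as a regulator of fuel use that glucocorticoids induce and the clock drives, and KLF2 and KLF4 are known as flow-responsive factors of the vessel wall. The 9 KLF genes described here are Klf2, Klf3, Klf4, Klf6, Klf7, Klf9, Klf10, Klf13 and Klf15, which stand among 22180 genes with a symbol of their own on the array. They were taken from the platform annotation as the probe sets that name a listed gene and no other, and probe sets of one gene were averaged. Each had 1 probe set, except Klf7 with 2.

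The hearts came from male wild-type C57Bl/6 mice, 8 weeks old, under 12 h of light and 12 h of dark. No group carried an allele, a drug or another treatment. Zeitgeber time (ZT) counts the hours since lights-on, and myocardium was collected in the light at ZT03, ZT07 and ZT11 and during the dark at ZT15, ZT19 or ZT23. Each of the 6 times had 4 arrays that the labels call biological replicates, 24 in all. The deposited values are log2 values set to a median of 0 over the 24 arrays for every probe set, so they show differences over the day and not levels. A level could not be compared between genes, and the tissue label could not be checked against marker levels. In such bulk tissue, fewer cells of a type and less RNA per cell cannot be told apart. Because the samples span 1 day, the return of a pattern on the next day was not measured.

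A 24-h rhythm was called for 6 of the 9 genes, against 7.61% of all genes (limma's moderated test of a 24-h cosine, Benjamini-Hochberg adjustment over 22180 genes, threshold 0.05). The 9 genes were chosen with earlier results of these data known. Their counts, here and below, are therefore not an even comparison with the shares of all genes. Klf9 and Klf15 had the widest swings, at 1.66-fold and 1.50-fold from peak to trough, and were followed by Klf2 (1.33-fold), Klf13 (1.29-fold), Klf6 (1.28-fold) and Klf7 (1.16-fold). The median over all genes was 1.06-fold. By phase, 4 of the 6 peaked in the light (3.83% of all genes) and 2 in the dark (3.78%). Peaks of 5 of the 6 genes lay between ZT 10.6 and ZT 13.1, around lights-off, and that of Klf7 lay at ZT 18.4 in the dark. The share of all rhythmic genes with peaks from ZT 10.6 to ZT 13.1 was not counted. Any difference among the 6 times was called for 5 genes (4.72% of all genes), namely the same ones without Klf2. The arrays of a gene's highest time and of its lowest time did not overlap for 6 of the 9, and for 27.6% of all genes.

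**Figure D1:**
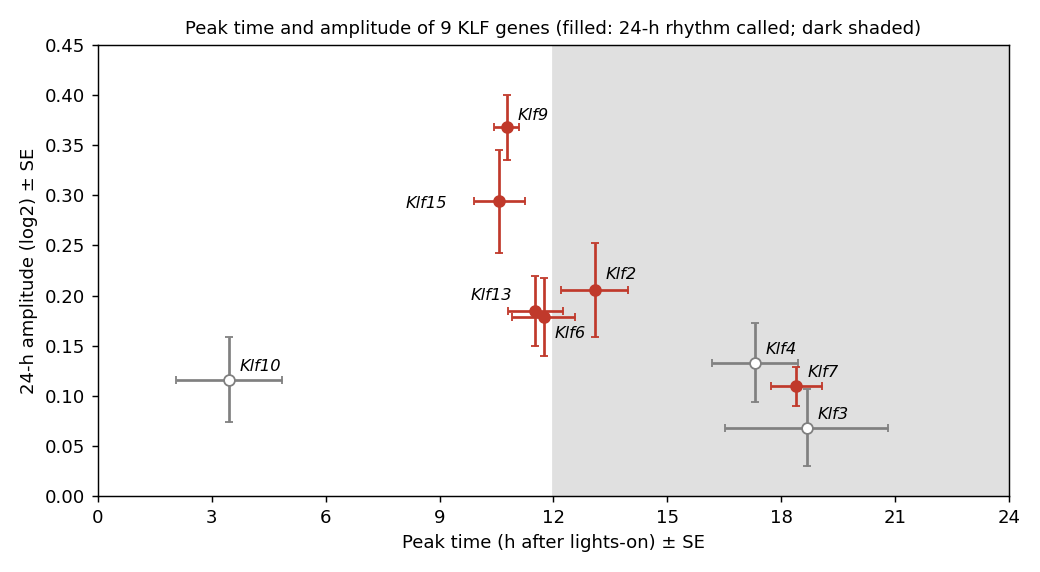
Peak time (x axis, h after lights-on) and amplitude (y axis, log2 units, the peak minus the mean) of the 24-h cosine for the 9 KLF genes, with bars of 1 SE over 24 arrays. Filled red points passed the adjusted p threshold, and grey shading marks the dark. Klf9 stands highest at 0.37, and 5 filled points lie near lights-off while Klf7 lies at ZT 18.4.

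Klf9 encodes a repressor-type KLF that glucocorticoids and thyroid hormone are known to induce. Its log2 values were 0.34, 0.42, 0.32 and 0.70 at ZT11 and -0.31, -0.38, -0.36 and -0.44 at ZT23. They were 0.28, 0.27, 0.29 and 0.12 at ZT07 and 0.27, 0.19, 0.23 and -0.059 at ZT15. Values near 0 or below were found at ZT03 (-0.0039, -0.17, -0.18 and 0.0039) and ZT19 (-0.022, -0.17, -0.042 and -0.089). All 4 arrays of ZT23 were below the other 20 arrays, and the time means were ordered upward from ZT23 to ZT11 and downward from ZT11 to ZT23. The 24-h cosine had an amplitude of 0.37 ± 0.032 (log2, SE, 24 arrays) and its peak at ZT 10.8 ± 0.34 (SE, h; adjusted p = 1.54e-07), and it held 96.8% of the variance of the 6 time means. Klf9 was 1.76-fold lower at ZT23 than at ZT11 (log2 difference -0.82 ± 0.076, SE, 4 arrays against 4, limma adjusted p = 7.88e-07), where 2.72% of all genes were called. It was also lower at ZT19 than at ZT07 (log2 difference -0.32, limma adjusted p = 0.0331; 1.59% of all genes), the comparison in which Klf7 was higher (0.20, limma adjusted p = 0.0378). The Klf9 call at these times did not hold without ZT07 replicates 1, 2 or 3 or any 1 of the ZT19 arrays (largest adjusted p = 0.114), nor that of Klf7 without ZT07 or ZT19 replicates 2, 3 or 4 (0.128), and both were lost with the replicate number as a block. The Klf7 call was also lost without the 3 arrays of lowest weight, which are named with Klf2, and from 1 of its 2 probe sets alone. Between ZT15 and ZT03, 0 members were called in limma, against 3.06% of all genes. An unadjusted p below 0.05 was found for 6 members, and all genes were not counted at that level.

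Klf15 encodes the KLF best known in heart for branched-chain amino acid and lipid use. Its log2 values were 0.20, 0.46, 0.50 and 0.64 at ZT11 and -0.19, -0.52, -0.26 and -0.28 at ZT23. Early in the light they were -0.045, -0.0073, 0.23 and -0.0029 (ZT03) and then -0.11, 0.0029, 0.069 and 0.15 (ZT07). They were 0.27, 0.23, 0.058 and -0.15 at ZT15 and 0.056, -0.12, -0.41 and -0.096 at ZT19. The arrays of ZT11 were above all arrays of ZT23, while those of ZT03 and ZT07 overlapped each other. The means of ZT03 and ZT07, 0.043 ± 0.12 (SD, n = 4) and 0.028 ± 0.11, differed by less than their spread, and that of ZT11 was 0.45 ± 0.18. The amplitude was 0.29 ± 0.051 with a peak at ZT 10.6 ± 0.67 (SE, h; limma adjusted p = 0.00153), and the cosine held 79.1% of the variance of the time means. Klf15 was 1.69-fold lower at ZT23 than at ZT11 (log2 difference -0.76 ± 0.11, SE, limma adjusted p = 0.000161). The peaks of Klf9 and Klf15 differed by 0.19 h, with a 95% interval from -1.20 to 1.57 h.

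Klf13 belongs with Klf9 and Klf10 to the KLFs known to bind the SIN3A corepressor, and its protein is known as a partner of the cardiac factor GATA4. Its log2 values were 0.14, 0.079, 0.24 and 0.45 at ZT11 and -0.077, -0.30, -0.34 and -0.020 at ZT23. The groups did not overlap, and ZT03 was also low, with a mean of -0.16 ± 0.14 (SD, n = 4). Klf13 changed 1.29-fold with a peak at ZT 11.5 ± 0.72 (SE, h; limma adjusted p = 0.00344). The fall from ZT11 to ZT23 was 1.33-fold (log2 difference -0.41 ± 0.085, SE, limma adjusted p = 0.0070). The call of any difference among times (limma adjusted p = 0.0261) did not hold without ZT11 replicate 3, ZT11 replicate 4, ZT23 replicate 2 or ZT23 replicate 3 (4 arrays, largest adjusted p = 0.0641).

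Klf6 encodes a factor known for early induction after tissue injury. Its log2 values were 0.092, 0.42, 0.27 and 0.42 at ZT11, and -0.26, -0.25, 0.048 and -0.050 at ZT03. The ZT11 arrays lay above those of ZT03, of ZT19 (-0.20 to 0.069) and of ZT23 (-0.18 to -0.011), and overlapped those of ZT07 and ZT15. The change over the day was 1.28-fold with a peak at ZT 11.7 ± 0.83 (SE, h; limma adjusted p = 0.0118). Klf6 was 1.31-fold lower at ZT23 than at ZT11 (log2 difference -0.39 ± 0.090, SE, limma adjusted p = 0.0203), a call that did not hold without ZT11 replicates 2 or 4 or ZT23 replicates 1 or 3 (largest adjusted p = 0.0885). Its call of any difference among times (limma adjusted p = 0.0383) did not hold once any of 12 arrays was left out (largest adjusted p = 0.133), which were replicates 1 and 2 of ZT03, 2 and 3 of ZT07, 2, 3 and 4 of ZT11, 2 and 3 of ZT19 and 1, 2 and 3 of ZT23.

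Klf9, Klf13, Klf15 and Klf6 were the 4 members called lower at ZT23 than at ZT11, where 1.76% of all genes were. Their promoters are shown because these genes share that difference, from 250 bases before to 50 after the RefSeq start, on the gene's strand (assembly GRCm38.p6). Capitals mark CACGTG, the E-box that CLOCK and BMAL1 are known to bind, and TGACGT, the core of the cyclic AMP response element. The windows are chr19:23140976-23141275 (plus strand) for Klf9, chr6:90462326-90462625 (plus) for Klf15, chr7:63938866-63939165 (minus) for Klf13 and chr13:5861239-5861538 (plus) for Klf6.
Klf9: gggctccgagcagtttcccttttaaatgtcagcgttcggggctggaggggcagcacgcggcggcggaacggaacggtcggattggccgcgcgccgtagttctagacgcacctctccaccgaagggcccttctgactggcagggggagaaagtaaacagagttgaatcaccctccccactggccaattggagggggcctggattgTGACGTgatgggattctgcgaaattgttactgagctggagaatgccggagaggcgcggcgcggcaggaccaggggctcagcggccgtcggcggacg
Klf15: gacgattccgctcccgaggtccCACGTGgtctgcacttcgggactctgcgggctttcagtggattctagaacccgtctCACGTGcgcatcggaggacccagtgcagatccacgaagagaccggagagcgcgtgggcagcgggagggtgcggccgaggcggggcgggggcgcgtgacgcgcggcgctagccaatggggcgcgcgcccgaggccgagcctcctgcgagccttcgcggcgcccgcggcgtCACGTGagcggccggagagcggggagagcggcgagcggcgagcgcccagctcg
Klf13: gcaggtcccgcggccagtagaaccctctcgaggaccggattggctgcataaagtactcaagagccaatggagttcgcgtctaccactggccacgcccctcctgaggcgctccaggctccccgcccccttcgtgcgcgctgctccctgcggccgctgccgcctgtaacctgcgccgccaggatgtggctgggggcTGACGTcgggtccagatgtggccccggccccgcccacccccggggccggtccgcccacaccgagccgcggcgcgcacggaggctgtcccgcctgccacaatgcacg
Klf6: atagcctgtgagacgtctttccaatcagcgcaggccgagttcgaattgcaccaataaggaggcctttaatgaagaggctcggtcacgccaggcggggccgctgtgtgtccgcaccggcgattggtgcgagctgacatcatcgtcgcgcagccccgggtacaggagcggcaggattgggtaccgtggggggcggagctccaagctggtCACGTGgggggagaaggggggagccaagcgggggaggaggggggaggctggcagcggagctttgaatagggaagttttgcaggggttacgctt
Klf15 held 3 E-boxes, which began 228, 172 and 3 bases before the start, and Klf6 held 1, 43 bases before it. Of 32851 promoter windows in the RefSeq table, 7.15% held an E-box and 29 windows (0.0883%) held 3 or more. Klf9 and Klf13 held no E-box in this window, and each held 1 TGACGT, at 46 and 56 bases before the start, which 7.51% of all windows held. The table had 8 of the 9 members, all but Klf10. Klf4 held 1 E-box, 182 bases before its start, and Klf2, Klf3 and Klf7 held none. On both strands, 0 of the 8 windows held the D-box TTATGTAA (0.938% of all windows) or TTACGTAA (0.119%), the REV-ERB and ROR core AGGTCA (16.3%) or the glucocorticoid receptor core AGAACA (19%). The KLF-type box CCACCC stood in 4 of the 8, Klf2, Klf3, Klf7 and Klf13 (31.5%). A match is a run of letters and not a measured binding site, and no match says only that the letters are not in this window.

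**Figure D2:**
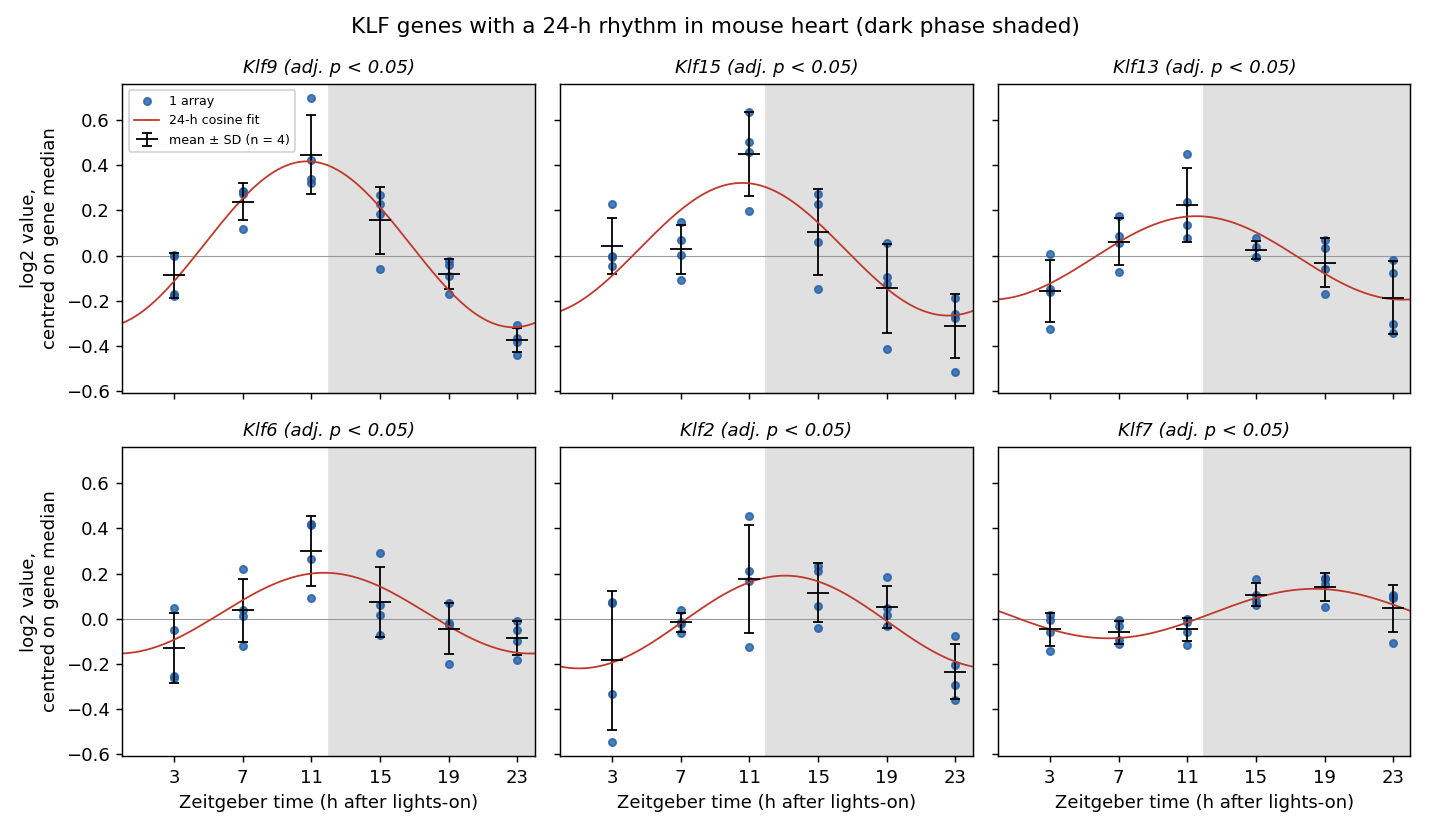
Log2 values (y axis, centred on each gene's median) of the 6 KLF genes with a 24-h rhythm against zeitgeber time (x axis, h), 1 point per array, with mean ± SD bars of 4 arrays, the fitted 24-h cosine in red and the dark phase shaded. Klf9 runs from 0.45 at ZT11 to -0.37 at ZT23, and Klf15 is flat between ZT03 and ZT07 before its high values at ZT11.

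Klf2 and Klf4 are known in endothelium as genes that laminar flow induces. The log2 values of Klf2 were -0.13, 0.17, 0.21 and 0.46 at ZT11 and 0.23, 0.21, 0.056 and -0.042 at ZT15. They were -0.55, -0.33, 0.072 and 0.072 at ZT03 and -0.076, -0.36, -0.21 and -0.30 at ZT23. The ZT03 arrays were split, with replicates 1 and 2 below and replicates 3 and 4 close to the other times, and the ZT11 and ZT23 arrays overlapped. Klf2 changed 1.33-fold with a peak at ZT 13.1 ± 0.87 (SE, h; limma adjusted p = 0.0180), and its spread within times (SD 0.18) was the widest of the 9 genes. The call was lost without the 3 arrays of lowest weight in limma's array weights, ZT15 replicate 1, ZT23 replicate 4 and ZT07 replicate 4 (1.30-fold, limma adjusted p = 0.0672). Klf2 peaked later than Klf9 by 2.32 h (95% interval 0.55 to 4.08 h) and later than Klf15 by 2.50 h (0.54 to 4.47 h). Its difference from Klf13 was 1.56 h (-0.40 to 3.51 h) and from Klf6 1.34 h (-0.84 to 3.52 h).

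Klf4 had no called rhythm (1.20-fold, limma adjusted p = 0.0892), and its highest means were in the dark. Its log2 values were -0.43, -0.25, -0.22 and 0.088 at ZT03, with only 1 array above 0, and 0.31, 0.0064, 0.074 and 0.025 at ZT19. The 12 night arrays averaged 1.14-fold above the 12 day arrays (log2 difference 0.19 ± 0.053, SE, limma adjusted p = 0.0497). Leaving out any of 18 arrays ended that call (largest adjusted p = 0.0919; it held only without ZT03 replicate 4, ZT11 replicate 4, ZT15 replicates 1 or 4, or ZT23 replicates 1 or 3). It was also lost without the 3 arrays of lowest weight, with the replicate number as a block and with robust variances.

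Klf7 encodes a factor best known from neurons, and its values were low in the light and high in the dark. They were 0.050, 0.18, 0.15 and 0.18 at ZT19 and 0.062, 0.10, 0.080 and 0.18 at ZT15. They were -0.0051, -0.095, -0.031 and -0.11 at ZT07, below every array of ZT15 and ZT19. At ZT23 the values were 0.093, 0.097, 0.11 and -0.11, with replicate 4 apart from the other arrays. The mean of its 2 probe sets changed 1.16-fold with a peak at ZT 18.4 ± 0.68 (SE, h; limma adjusted p = 0.00182). Its call of any difference among times (limma adjusted p = 0.0264) did not hold without ZT19 replicates 2, 3 or 4 (largest adjusted p = 0.0639). The probe sets differed. One changed 1.35-fold (limma adjusted p = 0.000453 over 34351 probe sets). Its means ran from -0.11 ± 0.13 (SD, n = 4) at ZT03 to 0.28 ± 0.10 at ZT19. The other had 1.01-fold (adjusted p = 0.978), with time means between -0.017 and 0.014, and the correlation of the 2 over the 24 arrays was 0.16. The Klf7 peak came 7.64 h after that of Klf9 (95% interval 6.06 to 9.21 h) and 5.32 h after that of Klf2 (2.95 to 7.68 h).

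Klf10 and Klf3 had no called rhythm. Klf10, the gene known as TGF-beta inducible early gene, had its highest mean at ZT07 (0.15 ± 0.14, SD, n = 4) and its lowest at ZT11 (-0.19 ± 0.21). At ZT11 its log2 values were -0.017, -0.0052, -0.27 and -0.45, against 0.099, -0.00085, 0.33 and 0.15 (ZT07) or 0.17, 0.071, 0.073 and 0.19 (ZT03). The arrays of ZT07 and ZT11 did not overlap, and those of ZT11 were split. The 24-h test gave 1.17-fold (limma adjusted p = 0.223), and the step from ZT07 to ZT11 was -0.33 ± 0.094 (log2, SE, limma adjusted p = 0.215). Klf3, a repressor that works through the corepressor CtBP, had 1.10-fold (limma adjusted p = 0.559). Its highest mean was at ZT15 (0.11 ± 0.12) and its lowest at ZT11 (-0.12 ± 0.19), and those groups overlapped.

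**Figure D3:**
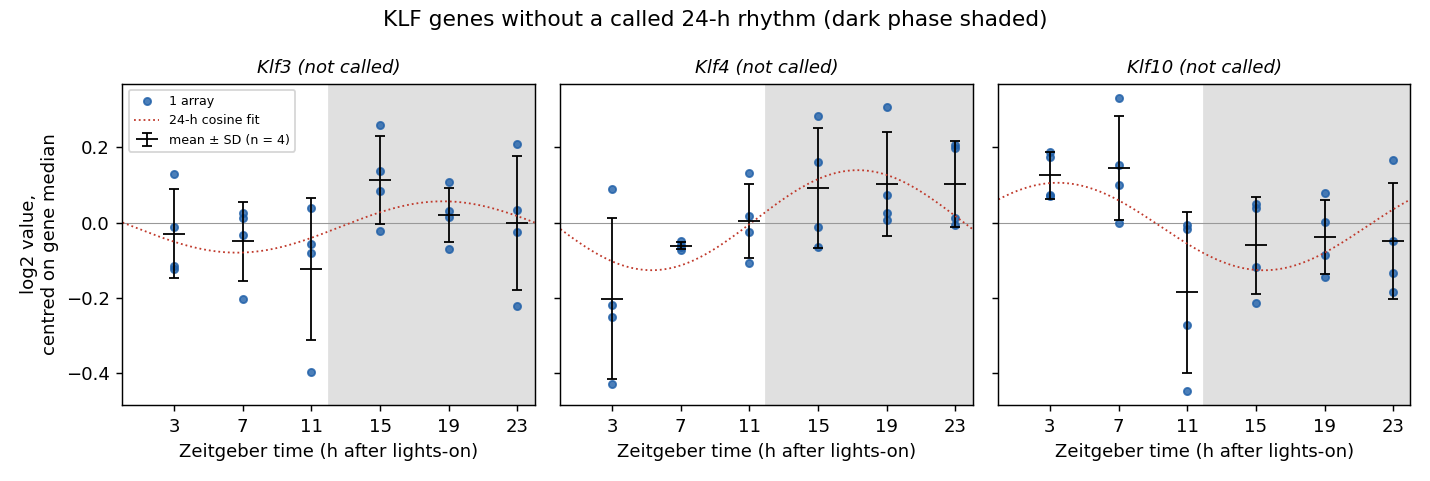
Log2 values (y axis, centred on each gene's median) of Klf3, Klf4 and Klf10 against zeitgeber time (x axis, h), drawn as for the rhythmic genes, with the fitted cosine dotted because no 24-h rhythm was called. Klf10 is above 0 in 7 of the 8 arrays of ZT03 and ZT07 and below 0 in all 4 of ZT11, and Klf4 is lowest at ZT03.

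The order of the time means differed between the genes. ZT11 was the highest of the 6 times for 5 genes (Klf2, Klf6, Klf9, Klf13 and Klf15) and the lowest for 2 (Klf3 and Klf10). ZT23 was the lowest for 4, Klf2, Klf9, Klf13 and Klf15. How many of all genes had their highest or lowest mean at these times was not counted. For dusk (ZT11 and ZT15) against dawn (ZT23 and ZT03), 5 members were called (3.76% of all genes), with 5 higher and 0 lower, against 2.06% and 1.7% of all genes. Klf9 was 1.44-fold higher at dusk (log2 difference 0.53 ± 0.054, SE, 8 arrays against 8, limma adjusted p = 1.19e-06) and Klf15 1.33-fold (0.41 ± 0.076, limma adjusted p = 0.00182). Klf2 (1.28-fold), Klf13 (1.23-fold) and Klf6 (1.23-fold) were the others, and the call of Klf2 was lost without the 3 arrays of lowest weight (limma adjusted p = 0.0744). The median of the 9 genes was 0.29 and that of all genes 0.0020.

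For night against day 4 members were called (4.39% of all genes). Klf4 and Klf7 were higher and Klf9 and Klf15 lower, against 1.89% and 2.49% of all genes. Klf7 was 1.11-fold higher (log2 difference 0.15 ± 0.028, SE, 12 arrays against 12, limma adjusted p = 0.00270), and Klf9 and Klf15 were 1.23-fold and 1.22-fold lower (limma adjusted p = 0.000251 and 0.00732). The Klf7 call was lost from 1 of its 2 probe sets alone (limma adjusted p = 0.977). Of the 54 pairs of a member and a step between neighbouring times, 0 were called by limma. In the order of the day from ZT03, the 6 steps called 0.203%, 0.311%, 0.203%, 0.203%, 0.0676% and 0.685% of all genes. An unadjusted p below 0.05 was found for 19 of the pairs, and all genes were not counted at that level. The smallest adjusted p was that of Klf9 from ZT23 to ZT03 (log2 difference 0.29, limma adjusted p = 0.0957). The largest difference was that of Klf15 from ZT07 to ZT11 (0.42 ± 0.11, SE, limma adjusted p = 0.124). A component of 12 h was called for 0 members and for 0% of all genes. An unadjusted p below 0.05 in limma was found for 1 member, Klf10, and for 1402 of all 22180 genes.

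**Figure D4:**
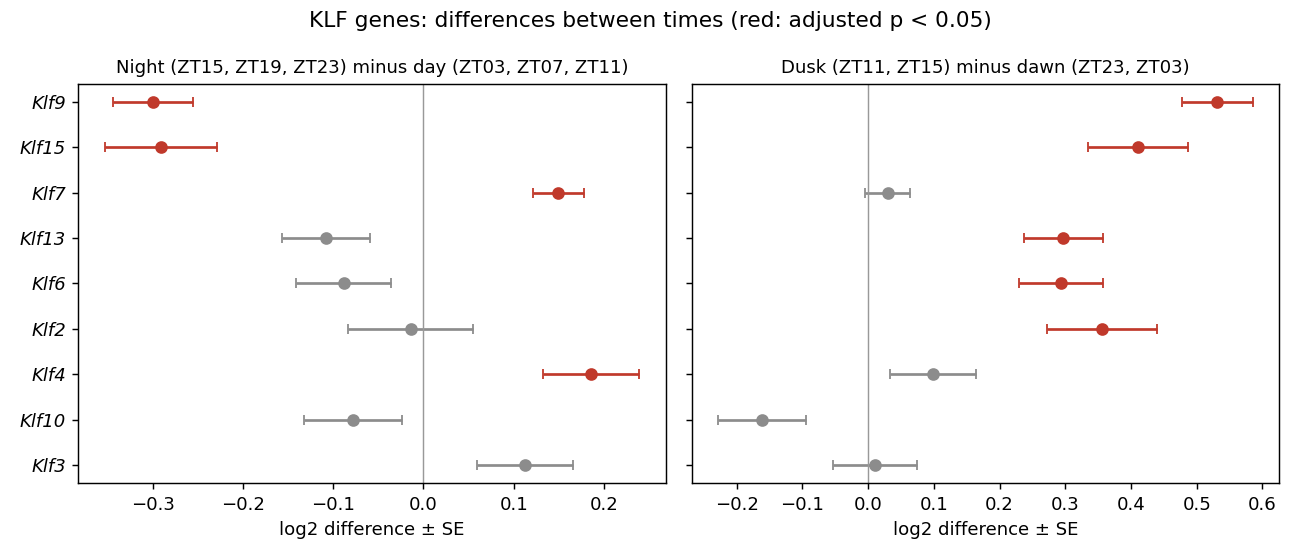
Log2 differences (x axis) with bars of 1 SE for the 9 KLF genes (y axis), for night minus day on the left and dusk minus dawn on the right, from limma's fit of 24 arrays. Red points passed the adjusted p threshold. Klf9 and Klf15 are to the left of 0 for night and to the right of 0 for dusk.

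Genes whose course over the 24 arrays was most like each rhythmic member were ranked by Pearson's r among 18286 protein-coding genes. For Klf9 they were Tcap, the titin cap of the Z-disc (r = 0.90), Nr1d2, a REV-ERB repressor (0.89), and Gpam, an enzyme of glycerolipid synthesis (0.89). The most opposed was Srf, the serum response factor (r = -0.85). For Klf15 they were the splicing gene Sugp1 (0.89), the semaphorin Sema7a (0.87) and the ribosome assembly gene Nop53 (0.86), and the most opposed was the amino acid transporter Slc38a2 (-0.86). For Klf7 they were Homer1, a scaffold of calcium signalling (0.88), the antiviral adaptor Mavs (0.84) and Dok7 (0.84), with Fam76b most opposed (-0.80). Klf6 ran closest to Tob2 (0.85), Per1 (0.80) and Sh2d3c (0.79), Klf13 to Ms4a4a (0.81), Ifrd2 (0.79) and Shld1 (0.79). For both, the most opposed gene was Fbxw7, the substrate receptor of a ubiquitin ligase (-0.84 for Klf6, -0.74 for Klf13). Klf2 ran closest to the autophagy receptor Sqstm1, Ccnd1 and Sparc (0.83 each), with Prmt3 most opposed (-0.74). Of the genes named here, Sparc, Prmt3, Ms4a4a and Ifrd2 had no called 24-h rhythm (limma adjusted p = 0.176, 0.122, 0.0827 and 0.0954). The r values describe the arrays, share the time of day, and carry no test.

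Of the other 8 KLF genes, all measured, 0 had a 24-h rhythm in limma's test and 1 had an unadjusted p below 0.05, and the median was 1.05-fold. Among all 22180 genes, 4320 had an unadjusted p below 0.05 in that test. The members and this list were chosen with earlier results known, so their counts are not an even comparison. Klf12, a CtBP-binding repressor, was closest to the threshold (1.26-fold, ZT 15.5, limma adjusted p = 0.0516). Klf11, the near relative of Klf10, had 1.15-fold (adjusted p = 0.288) and Klf5 1.02-fold (0.904). Of 8 measured SP factors, relatives with similar fingers, 0 were called for a rhythm in limma and 2 had an unadjusted p below 0.05. Of these, Sp3 had 1.19-fold (limma adjusted p = 0.0518). Klf12 passed when any of 5 arrays was left out, and Sp3 when any of 4 was: ZT07 replicate 4, ZT11 replicate 1, ZT19 replicates 2 or 4 or ZT23 replicate 2 for Klf12, and ZT11 replicate 1, ZT15 replicate 2, ZT19 replicate 2 or ZT23 replicate 4 for Sp3. Both also passed under quantile normalization, protein-coding genes only and array weights.

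Lists of genes known to act with or downstream of these factors were read beside the 7.61% of all genes called for a 24-h rhythm. At an unadjusted p below 0.05 in limma, there were 4320 of all 22180 genes. The KLF cofactor list had 1 of 11 called, the acetyltransferase Ep300 (1.17-fold, ZT 17.9). The list of ubiquitin ligases known for KLF proteins had 1 of 7, Fbxw7 (1.29-fold, ZT 22.7, limma adjusted p = 0.00114), whose lowest mean was -0.26 at ZT11. Known KLF15 targets had 3 of 13 called: Prodh, the first enzyme of proline breakdown (1.33-fold, ZT 13.7), the alanine transaminase Gpt2 (1.24-fold, ZT 15.4) and the glucose transporter Slc2a4 (1.19-fold, ZT 10.5). The potassium channel subunit gene Kcnip2, also on that list, had 1.03-fold (limma adjusted p = 0.969) and the transaminase Bcat2 1.06-fold (0.766). Genes that KLF15 is known to hold down had 1 of 6, the natriuretic peptide gene Nppb (2.70-fold, ZT 0.52). Known endothelial targets of KLF2 and KLF4 had 4 of 10, all with peaks in the dark (3.78% of all genes) and all higher at dusk (2.06% of all genes). S1pr1 was not called higher at dusk without the 3 arrays of lowest weight (limma adjusted p = 0.0512). The 4 were the water channel Aqp1 (1.74-fold, ZT 13.8), thrombomodulin, Thbd (1.49-fold, ZT 14.8), the sphingosine receptor S1pr1 (1.37-fold, ZT 13.6) and Vcam1 (1.22-fold, ZT 14.6), an adhesion gene that KLF2 is known to repress. The ERK5 and MEF2 inputs had 1 of 6 (Mef2a, 1.19-fold, ZT 2.08), and the TGF-beta axis of Klf10 had 0 of 9 in limma, with 1 at an unadjusted p below 0.05. The call of Slc2a4 (limma adjusted p = 0.0464) did not hold without any of 16 of the arrays, all but ZT03 replicates 1, 3 and 4, ZT07 replicate 4, ZT11 replicate 1, ZT15 replicates 1 and 4 and ZT19 replicate 4 (largest adjusted p = 0.116). That of Mef2a (0.0468) did not hold without any of 18, all but ZT03 replicate 3, ZT07 replicate 4, ZT11 replicates 1 and 3, ZT15 replicate 4 and ZT19 replicate 3 (0.0873), and that of Vcam1 without ZT15 replicate 2 (0.0534).

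Markers of cell types that could carry these factors were read beside them. A 24-h rhythm was called for 7.61% of all genes, with 3.83% peaking in the light and 3.78% in the dark. The mean of 10 endothelial markers was highest at ZT03 (0.061 to 0.15 over its 4 arrays) and between -0.14 and 0.12 at the other times, with 2 of 10 called, Kdr and Robo4. These went opposite ways, with Kdr lower at dusk (log2 difference -0.55, limma adjusted p = 5.72e-07) and Robo4 higher (0.18, limma adjusted p = 0.0177). The mean of 10 cardiomyocyte markers stayed between -0.064 and 0.071 on all arrays (2 of 10 called, Ttn and Ryr2). Of 9 macrophage markers 6 were called, all with peaks in the dark, and 3 of 9 fibroblast, 3 of 5 platelet and 0 of 7 lymphocyte markers were called by limma. Of the called fibroblast markers, Col1a1 (log2 difference -0.27) and Col3a1 (-0.32) were lower at night and Dcn (0.19) was higher. Of 7 smooth muscle and 6 atrial markers 0 were called by limma. At an unadjusted p below 0.05 there were 0 lymphocyte, 4 smooth muscle and 2 atrial markers, and 4320 of all 22180 genes. The platelet mean was higher on every night array than on any day array, beside the dark-phase values of Klf4 and Klf7. It was -0.0014 to 1.15 at ZT15, 0.088 to 0.82 at ZT19 and 0.13 to 0.64 at ZT23, against -0.31 to -0.019 in the light. By marker, the night minus day log2 difference was 1.70 for Ppbp, 0.59 for Gp9 and 0.25 for Pf4. Itga2b (0.17) and Gp5 (0.086) were not called at night (limma adjusted p = 0.124 and 0.485). Glucocorticoid-responsive genes had 11 of 14 called, 9 of them with peaks in the dark, and 8 were higher and 2 lower at dusk. The mean of the list was 0.22 to 0.53 at ZT11 and 0.16 to 0.43 at ZT15. It was -0.27 to -0.061 at ZT23 and -0.23 to -0.082 at ZT03. Klf2, Klf9, Klf13 and Klf15 were also highest at ZT11 and lowest at ZT23. Their fitted peaks were in the light, except that of Klf2 (ZT 13.1). The Klf15 mean at ZT03 was 0.043, with replicate 3 at 0.23 and the other arrays below 0. Immediate early genes had 4 of 16 called, all with peaks in the light. The part of these cell types and responses in the KLF values was not tested.

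Array-to-array variation within a time was compared after subtracting the time means. Of 36 pairs of members, 0 passed (permutation of arrays within times, two-sided, Benjamini-Hochberg over 36) and 1 had an unadjusted p below 0.05. That pair was Klf2 and Klf15 (Pearson r = 0.52, permutation p = 0.0147, adjusted p = 0.53; Spearman rho = 0.52; r = 0.42 without the 2 arrays farthest from the median). For Klf9 and Klf15 r was 0.32 (permutation p = 0.22), and 0.021 without 2 such arrays. Against the means of 4 lists, 0 of 36 pairs passed and 10 had an unadjusted p below 0.05. How often other genes reached that level against these means was not counted. Klf2 followed the immediate early genes most closely (r = 0.73, permutation p = 0.00915, adjusted p = 0.134; rho = 0.40, permutation p = 0.137; r = 0.51 without 2 arrays). Klf4 (r = 0.68, adjusted p = 0.134 by permutation) and Klf6 (r = 0.54, adjusted p = 0.161 by permutation) had the same sign with that list. So did Klf13 (r = 0.50), Klf15 and Klf9, while r was near 0 for Klf3 (0.0013) and negative for Klf7 and Klf10. Klf15 and the endothelial markers had r = 0.58 (adjusted p = 0.134 by permutation) and rho = 0.58 (adjusted p = 0.0702 by permutation).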

How the data were processed

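The deposited log2 values of 34351 probe sets on 24 arrays were centred by the authors on each probe set's median (0 within 5e-07). Which logarithm was taken is not said, so base 2 is assumed and every fold rests on it, as does the reading of higher values as more RNA. No source used here gives the steps from scan to value or their software. The arrays were Affymetrix arrays hybridised with biotinylated cRNA, per the labels. The number of arrays limits the precision. No batch is named in the labels. Array medians lay between -0.00223 and 0.00731.

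Probe sets that name 1 gene (23521) were averaged to 22180 genes and tested with limma 3.58.1 in R 4.3.3: a 24-h cosine (21 residual degrees of freedom), time means (18), contrasts and a 12-h component. Peak differences have delta-method intervals. Correlations within times used 100000 permutations in Python 3.11.15. The fit was tested on simulated data. Named genes were all members, called relatives, up to 3 called genes per list, and the 3 most like and 1 most opposed gene of each rhythmic member. Vcam1, Kcnip2, Bcat2, Klf5, Klf11, Klf12 and Sp3 were named after their values were seen. The members and lists were chosen with earlier results of these data known.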

Additional observations from a re-analysis of the deposited data

Results flagged for a closer look

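In 3 of 54 groups of 4 arrays, 1 array stood apart from the other 3 by a gap that, as a share of the group's range, was above Dixon's critical value at 95%, where chance gives about 1 group in 20. They were Klf7 at ZT23, where replicate 4 had -0.109 and the next array 0.093, Klf9 at ZT07, where replicate 4 had 0.118 and the next array 0.27, and Klf15 at ZT03, where replicate 3 had 0.227 and the next array -0.0029. ZT23 replicate 4 and ZT07 replicate 4 are also 2 of the 3 arrays of lowest weight. Without those 3 arrays the rhythms of Klf7, Klf9 and Klf15 were still called.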

How the results depend on the processing

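Among members, every call of a 24-h rhythm kept its side of the threshold without any 1 of the 24 arrays (6 members each time). The same held under equal SDs, array weights, robust variances, protein-coding genes only and the median of probe sets. The calls of Klf2 without 3 arrays and of Klf7 from its first probe set alone (5 members each) were the exceptions, the latter an alternative chosen after seeing the data. Without 1 array, any difference among times was called for 3 to 6 members (3 without ZT11 replicates 3 or 4, ZT19 replicates 2 or 3 or ZT23 replicates 2 or 3), night against day for 3 to 4, dusk against dawn for 5, member and step pairs for 0 to 2 (1 without ZT03 replicate 4 or ZT11 replicate 1 and 2 without ZT11 replicate 4), pairs at opposite times for 4 to 7 (6 with all arrays), and pairs that varied together within times for 0 to 1 (1 without ZT19 replicate 3). Step pairs came to 1 under quantile normalization (Klf9 from ZT03 to ZT07) and to 2 under array weights (that step and the rise of Klf15 from ZT07 to ZT11), and the cause was not tested. With the replicate number as a block, 6 members had a rhythm, 4 a difference among times, 3 a night difference, 5 a dusk difference and 4 pairs a difference at opposite times. No sign was seen that the replicate numbers pair arrays across times. Of 60 same-numbered pairs, 5 correlated above 0.1, and 6 of 24 arrays correlated best with their own number. The labels do not say whether the same number marks a shared origin. The block ended the calls of Klf4 at night (limma adjusted p = 0.0636) and of Klf7 for any difference (limma adjusted p = 0.0533). Signal over background is unknown, so dim genes could not be filtered.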
